A study of Mus musculus with 18 samples.

Results

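Hybrid joins are products of V(D)J recombination in which the coding end of one recombination signal sequence is joined to the signal end of the other. They were counted on an integrated pMX-INV substrate as minus-strand junctions in a window from 500 bp inside the partner signal to 6 bp past its heptamer. This rule took 311 of 30937 junctions in 12 libraries, and 9015 of all junctions lay on the substrate. The same reads held 6825 coding-side joins, taken from the mirror window on the plus strand beyond the partner heptamer and of equal width, and 505 joins of the bait end to the signal side of its own break (minus strand, 1443 to 1948).

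High-throughput genome-wide translocation sequencing (HTGTS) extends a fixed bait primer across one broken end and records the sequence to which that end was joined, the prey. The cells were v-abl transformed B cells from strain 129 mice, precursor B cells immortalised by a viral kinase, in which the kinase inhibitor STI571 stops the cycle in G1 and turns on the RAG recombinase. All cells carried the substrate and met STI571, so no group was without either. The 4 genotypes crossed a CtIP allele with loss of DNA-PKcs. They were wild type, the CtIP A/A single mutant, the DNA-PKcs -/- single mutant and the double mutant, CtIP A/A DNA-PKcs -/-, each with 1 G1 library (3 µM STI571 for 48 or 72 h) and 2 G2 libraries (3 µM STI571 for 24 h, then 10 µM of the CDK1 inhibitor RO3306 for 48 h). The labels give neither the G1 time of each library nor whether replicates were separate cultures or lines. P-values therefore measure the spread between these libraries, which may be technical, and genotype cannot be told apart from cell line. The junction tables measure neither protein, so each genotype rests on its label. A further 6 samples, in which I-PpoI made the breaks, are not analysed here.

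RAG cuts between a signal heptamer and the flanking coding sequence and leaves a blunt signal end and a coding end sealed as a hairpin. The hairpin is opened by the Artemis nuclease with the kinase DNA-PKcs, often off centre, which leaves an overhang that can be copied into a short palindromic insertion, called P nucleotides. Classical end joining normally pairs coding end with coding end and signal end with signal end, and the enzyme TdT can add untemplated N nucleotides rich in G and C. CtIP promotes resection of broken ends, and the A/A allele belongs to a study of its ATM/ATR phosphorylation site. In this substrate both heptamers are shown 5′ to 3′ from the signal out to the coding sequence, because their borders define every deletion below.

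bait heptamer: CACTGTG

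partner heptamer: CACTGTG

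The bait heptamer lay at positions 1936 to 1942 of the substrate, with a 12 bp spacer on its signal side. The partner heptamer started at 2806, with a 23 bp spacer and a nonamer at 2774 to 2782 on its signal side. The intact coding end starts at the base after 1942, and the intact signal end is the outer base of the partner heptamer. These are also the outer bases of the 870 bp segment between the cleavage sites, so the joined ends bound the same piece of DNA. Whether a join linked the ends of 1 substrate copy or of different copies cannot be told apart from the reads. Positions refer to the substrate, which carries no gene annotation among the sources used here.

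Libraries held 289 to 7068 junctions, with 185 to 1855 on the substrate. The G2 library 1 of each genotype was sequenced in a first run and the other libraries in a second run, according to the read names. The 311 hybrid joins comprised 266 distinct junctions as aligned. Of these, 29 occurred in more than 1 library and accounted for 74 joins, while only 2 joins repeated another of the same library. Both hybrid joins of CtIP A/A G2 library 1 were also present in the CtIP A/A G1 library, base for base at both ends. These joins had lost 133 bp of bait with 253 bp of signal sequence and 93 bp of bait with 366 bp of signal sequence. Whether this reflects a shared source of DNA was not tested, and the averaged DNA-PKcs differences in the ends are given with and without that library. No hybrid join carried the deposited mark for bases past an uncut break site. As aligned, the bait ran past the heptamer border in 48 of the 311 joins and was trimmed to it. A prey alignment under 30 bp was seen in 5 hybrid joins, the shortest being 27 bp.

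Hybrid joins made up a small share of the joins to the partner in most libraries. Wild type had 34 hybrid joins in G1, which was 4.10% of its hybrid and coding-side joins together, while its G2 libraries had 4 and 3 (1.42% and 1.81%). CtIP A/A had 22 in G1 (5.02%) and 2 and 7 in G2 (0.760% and 2.37%). DNA-PKcs -/- had 58 in G1 (5.23%) and 5 in the first G2 library (0.775%). Its second G2 library had 0 hybrid joins beside 481 coding-side joins, which allows a share of up to 0.624%. The double mutant had 87 in G1 (5.61%) and 8 and 81 in G2 (2.42% and 10.9%). All 4 genotypes had between 4.10% and 5.61% in G1, whereas the G2 libraries ranged from 0% to 10.9%. The second G2 library of the double mutant was the highest of all, with a 95% Wilson interval of 8.82% to 13.3%, and its replicate had an interval of 1.23% to 4.71%. The treatment of duplicate reads is not given in the sources used here, so these intervals and floors cover counting error only.

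**Figure D1:**
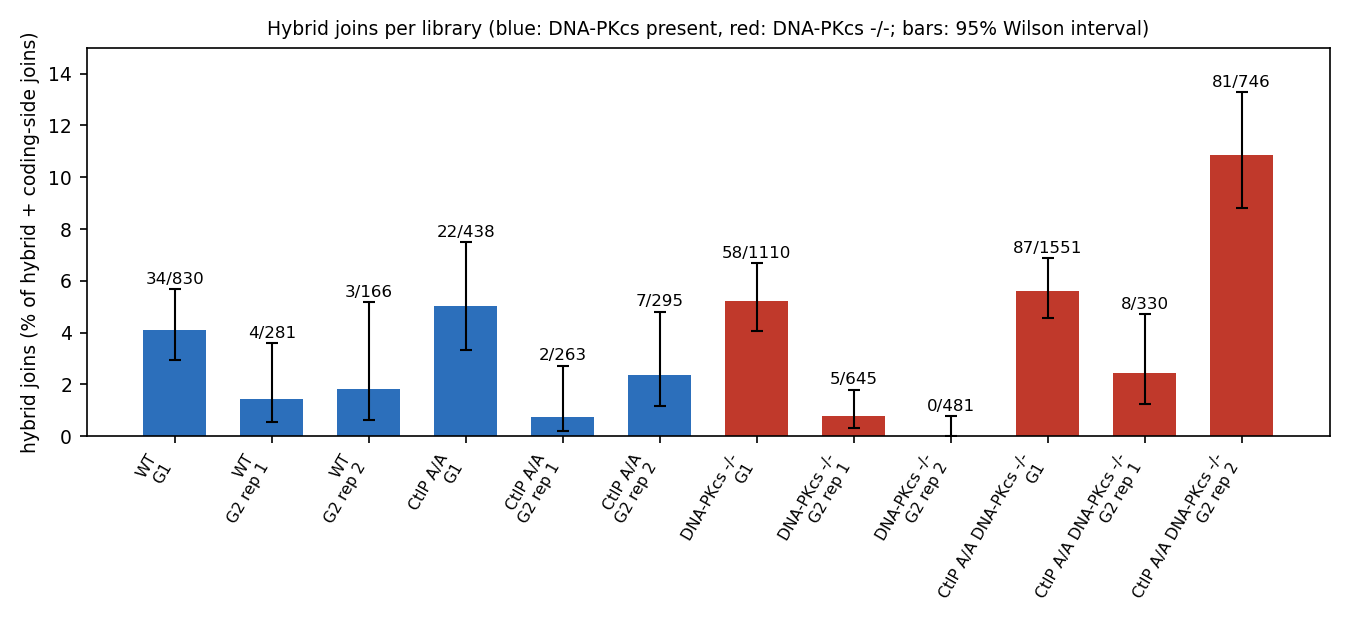
Hybrid joins as a percentage of hybrid plus coding-side joins in each of the 12 libraries (bars), with 95% Wilson intervals and the counts above them. The G1 libraries of all genotypes sit between 4.10% and 5.61%, and the G2 libraries spread from 0% to 10.9%.

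No comparison of the hybrid share passed its test. With DNA-PKcs the share was 2.58% ± 1.65 (SD, n = 6 libraries), and without DNA-PKcs 4.15% ± 4.00 (SD, n = 6). Averaged over the 4 combinations of CtIP genotype and phase, the share was 1.39 percentage points higher without DNA-PKcs (interval -1.23 to 5.07), higher in 3 of 4 combinations, with adjusted p = 0.50 in the exact permutation test over libraries. CtIP A/A libraries exceeded CtIP wild-type libraries by 1.88 points (interval -0.0929 to 6.25, higher in 3 of 4 combinations, unadjusted p = 0.0694, adjusted p = 0.417, exact permutation test). Without the second G2 library of the double mutant this difference was 0.825 points, and the DNA-PKcs difference was 0.336 points. G2 libraries had 2.44 points less than G1 libraries (interval -5.77 to 1.48, lower in 3 of 4 genotypes, adjusted p = 0.556, exact permutation test), and 3.49 points less without that library, with adjusted p = 0.111 in the same test.

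The partner signal end was intact in most hybrid joins of cells with DNA-PKcs and shortened in most hybrid joins of cells without it. An intact, or complete, signal end reached the outer base of the heptamer with no base lost. In wild type, 23 of 34 joins were complete in G1, and 3 of 4 and 2 of 3 in G2. In CtIP A/A, 12 of 22 were complete in G1, with 0 of 2 and 5 of 7 in G2. In DNA-PKcs -/-, 6 of 58 were complete in G1 and 0 of 5 in the G2 library that had hybrid joins. In the double mutant, 16 of 87 were complete in G1, and 2 of 8 and 23 of 81 in G2. Pooled, 45 of 72 joins were complete with DNA-PKcs (62.5%, Wilson interval 51.0% to 72.8%) and 47 of 239 without it (19.7%, 15.1% to 25.2%). Apart from CtIP A/A G2 library 1, every library with DNA-PKcs lay above every library without it. The coding-side joins of the same libraries separated in the same way, with a complete partner end in 27.5% to 40.8% of joins with DNA-PKcs and 6.28% to 7.81% without it. In 64 of the 92 complete joins the deposited prey position was that outer base itself. In the other 28 the alignment ran on past the border and was trimmed to it.

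The permutation test did not pass after adjustment, here or for any of the 6 DNA-PKcs measures, of which this one alone had an unadjusted p below 0.05. Averaged over strata, 13.9% of signal ends were complete without DNA-PKcs and 57.2% with it, a difference of -43.3 points (interval -70.8 to -0.514). The value was lower in all 4 strata, with p = 0.0417 and adjusted p = 0.167 over 6 measures in the exact permutation test, whose smallest possible p is 0.0139. Without CtIP A/A G2 library 1 the difference was -52.3 points, with adjusted p = 0.0833 in the exact permutation test. Joins of a single library share their source, so the pooled counts are a description.

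The shortened signal ends of DNA-PKcs -/- cells stopped mainly in the 23 bp spacer. Deletions of 8 to 30 bp, which end in the spacer, took 2 of 34, 0 of 4 and 0 of 3 joins in wild type and 1 of 22, 0 of 2 and 0 of 7 in CtIP A/A, in the order of G1, G2 library 1 and G2 library 2. They took 27 of 58 and 4 of 5 joins in DNA-PKcs -/- and 40 of 87, 4 of 8 and 31 of 81 in the double mutant. The libraries with DNA-PKcs had 0% to 5.88% and those without it 38.3% to 80%, so the groups did not overlap. The averaged difference was 51.6 points (interval 39.9 to 80, higher in 4 of 4 strata), and it was 51.6 points without CtIP A/A G2 library 1 as well. It had the smallest p that the exact permutation test can give, 0.0139. This range was chosen after its values had been seen, and in the exact permutation test adjusted over 7 measures it had p = 0.0972. Deletions that ended inside the heptamer took 11 of 72 joins with DNA-PKcs (15.3%) and 24 of 239 without it (10.0%). The nonamer, which RAG1 binds, held the end in 0 of 72 and 10 of 239 joins, and 13 of 72 (18.1%) and 52 of 239 (21.8%) had lost it altogether.

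**Figure D2:**
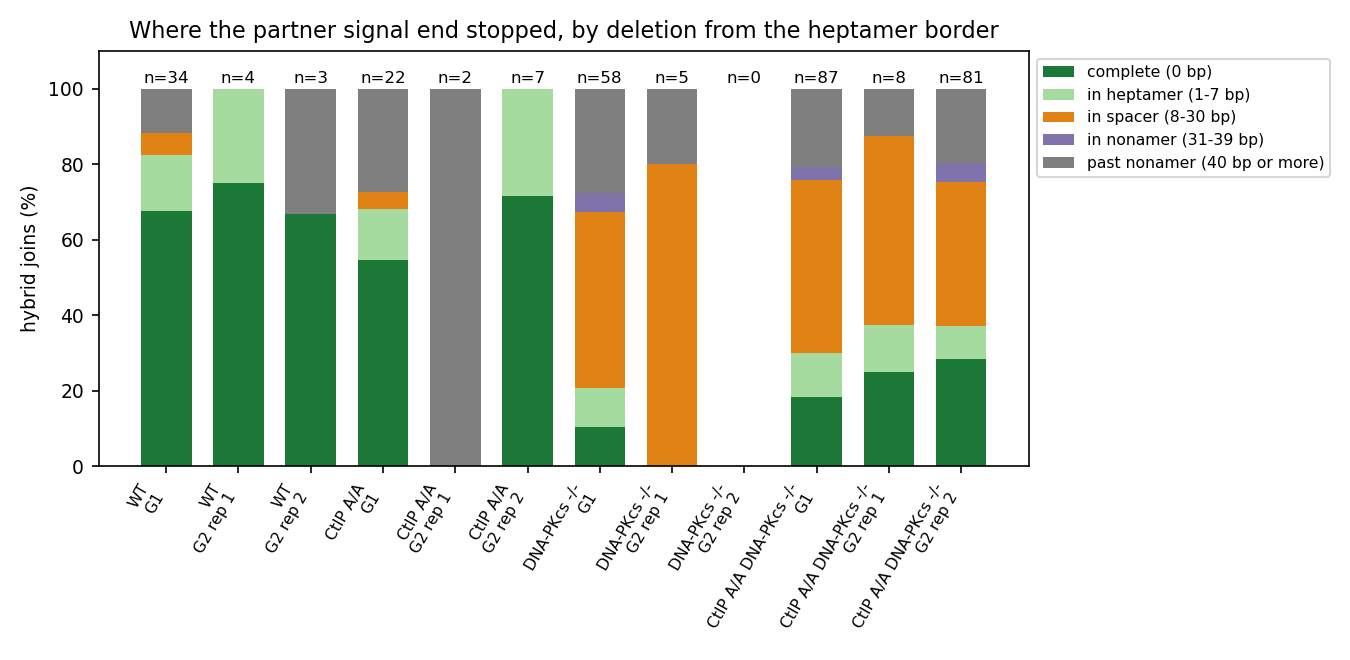
Share of each library's hybrid joins by where the partner signal end stopped, as the number of bases lost from the heptamer border; the number of hybrid joins stands above each bar. Complete ends lead in 5 of the 6 libraries with DNA-PKcs, and ends in the spacer lead in all 5 libraries without DNA-PKcs that had hybrid joins.

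Losses of 8 to 30 bp from the partner's coding end were common in both genotypes in the coding-side joins of the same libraries, at 23.9% to 37.2% with DNA-PKcs and 37.5% to 51.9% without it. The median signal-end deletion per library was 0 bp in 5 of the 6 libraries with DNA-PKcs and 310 bp in CtIP A/A G2 library 1. It was 14 to 19 bp in the 5 libraries without DNA-PKcs. Among shortened signal ends alone the pooled median was 24 bp with DNA-PKcs (27 joins) and 20 bp without it (192 joins). Deletions over 20 bp took 14 of 72 and 89 of 239 joins, and their averaged difference was 10.1 points (interval -58.9 to 41.1, adjusted p = 0.65, exact permutation test). It was 22.6 points without CtIP A/A G2 library 1 and -2.37 points without CtIP A/A G2 library 2. It was 32.0 points in a 200 bp window (p = 0.0278, adjusted p = 0.0556, exact permutation test) and 45.1 points for deletions over 10 bp (adjusted p = 0.139, exact permutation test). The longest losses were 487 bp in the wild-type G1 library and 402 bp in the double mutant in G1. A single join lay within 50 bp of the far limit of the window, and the nearest minus-strand junctions outside it were at positions 2255 and 2837. Minus-strand junctions were also present further out on both sides. There were 159 in the 500 bp beyond the coding-side limit of the window, and 107 between its far limit and position 1948. Of the hybrid joins, 14 had lost over 200 bp of signal. Whether these 14 arose in the same way as the minus-strand junctions outside the window was not tested.

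After the intact end, the prey positions with the highest mean share over libraries were 2446, 2559, 2796 and 2811. Positions 2446 and 2559 held 2 joins each, those common to the CtIP A/A G1 library and G2 library 1. Position 2796, which is 16 bp inside the signal and in the spacer, held 9 joins from 6 libraries, 8 of them without DNA-PKcs. Cells without DNA-PKcs held 239 of all 311 hybrid joins. Position 2811, 1 bp inside the heptamer, held 10 joins, 4 with DNA-PKcs and 6 without.

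The bait coding end was complete in 26 of 72 hybrid joins with DNA-PKcs (36.1%) and 43 of 239 without it (18.0%). By library the shares were 29.4%, 75.0% and 33.3% in wild type and 31.8%, 0% and 71.4% in CtIP A/A. They were 10.3% and 20.0% in DNA-PKcs -/- and 14.9%, 25.0% and 25.9% in the double mutant. CtIP A/A G2 library 1, with 2 joins, was the only library with DNA-PKcs below 29.4%. The pooled median bait deletion was 1.5 bp with DNA-PKcs and 10 bp without it. Deletions over 20 bp took 11 of 72 and 75 of 239 joins, and the averaged difference of 1.61 points had an interval of -87.8 to 44.5 (adjusted p = 0.986, exact permutation test). It was 14.1 points without CtIP A/A G2 library 1 and 19.4 points in a 200 bp window (adjusted p = 0.222, exact permutation test). The longest bait deletion was 143 bp. The inner edge of the nested bait primer lies 159 bp from the intact coding end, so a loss beyond it could not be read. After the intact end, the bait ends with the highest mean share over libraries were 1944 (18 joins, 7 libraries), 2076 (3 joins), 2036 (2 joins) and 1951. Positions 2076 and 2036 rank there through CtIP A/A G2 library 1, which has 2 joins in all. Position 1951, 8 bp into the coding sequence, held 13 joins from 4 libraries, all without DNA-PKcs, as were 239 of all 311 hybrid joins.

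Both ends were complete in 18 of 72 joins with DNA-PKcs and 12 of 239 without it. The exact hybrid join, with both ends complete and nothing inserted, occurred 8 times in 6 libraries. It was found 2 times in wild type G1, 1 time in the first wild-type G2 library, 1 time in CtIP A/A G1, 2 times in the second CtIP A/A G2 library, and 1 time each in DNA-PKcs -/- G1 and the double mutant in G1. A join 1 bp short of it on the bait side, also with nothing inserted, occurred 6 times in 6 libraries. A further recurrent join kept the whole bait end, lost 20 bp of signal and shared 5 bases between both ends. It occurred 6 times in 5 libraries, 1 time with DNA-PKcs and 5 times without, and no other shared sequence over 2 bases was seen as often. Of all 96 hybrid joins with shared bases, 84 lacked DNA-PKcs. As aligned, only 2 hybrid joins repeated another of the same library, and how duplicates were treated is not given. Counts of the exact and other recurrent joins may therefore follow the number of libraries and not how often a join formed.

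recurrent shared sequence: GTCTG

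Inserted bases were present in 46 of 72 hybrid joins with DNA-PKcs (63.9%) and 66 of 239 without it (27.6%). Wild type had insertions in 25 of 34, 2 of 4 and 2 of 3 joins, and CtIP A/A in 14 of 22, 0 of 2 and 3 of 7. DNA-PKcs -/- had 14 of 58 and 0 of 5, and the double mutant 19 of 87, 0 of 8 and 33 of 81. Apart from CtIP A/A G2 library 1, the libraries with DNA-PKcs had 42.9% to 73.5% and those without it 0% to 40.7%. In the coding-side joins of the same libraries the ranges were 72.9% to 75.5% and 19.1% to 35.6%. The averaged difference was -37.6 points, lower in all 4 strata, and did not pass (p = 0.0556, adjusted p = 0.167, exact permutation test). It was -43.0 points without CtIP A/A G2 library 1. Inserted bases were G or C in 71.2% of 170 bases with DNA-PKcs and 68.3% of 202 bases without it, and the median insertion was 3 and 2 bp. The 5 most frequent insertions are shown because they are all short, 3 of them of G and C alone.

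most frequent insertion: CC

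next insertion: G

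next insertion: A

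next insertion: C

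next insertion: CA

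CC occurred 8 times, G 8 times, A 7 times, C 7 times and CA 4 times, the last as often as GA and GG. All 8 insertions of G were in cells without DNA-PKcs, which held 66 of the 112 hybrid joins with insertions. In 2 joins with DNA-PKcs, 1 in wild-type G1 and 1 in CtIP A/A G1, the insertion was CACAGTG. In the direction of the read, from the coding end into the signal, this is the heptamer itself. It is the reverse complement of the strand shown above. These joins had a complete signal end and had lost 0 and 1 bp of bait. The same bases follow the intact coding end in the uncut bait, whose own heptamer has this sequence. In the join that lost 0 bp they count as inserted because bait sequence was read only up to the border. Their source was not tested. The 2 joins were singled out after their sequence had been seen.

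Palindromic insertions of 3 or more bases at complete bait ends were counted in both genotypes. They repeat the last bases of the coding end in reverse complement, the form that P nucleotides take. They occurred in 0 of 26 complete bait ends with DNA-PKcs, which allows a share of up to 11.5%, and in 16 of 43 without it (37.2%, Wilson interval 24.4% to 52.1%). These were 3 of 6 in DNA-PKcs -/- G1, 4 of 13 in the double mutant in G1 and 9 of 21 in its second G2 library. The first G2 libraries of both genotypes had 0 of 1 and 0 of 2. In the coding-side joins the same insertions were found in 34 of 467 complete bait ends with DNA-PKcs (7.28%) and in 97 of 378 without it (25.7%). The limit of 11.5% for hybrid joins with DNA-PKcs holds this coding-side share. The measure and its minimum of 3 bases were chosen after the data had been seen, the difference was not tested, and palindromes of 2 bases also occurred in the wild-type G1 library. Examples from the longest to the shortest are shown because they are nested copies of the same end, with the palindromic part in capitals and further inserted bases in lower case.

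DNA-PKcs -/- G1: CAGACGT

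double mutant, G2 library 2: CAGACGTcc

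double mutant, G2 library 2: CAGACGccctcctgcacg

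double mutant, G1: CAGACcc

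DNA-PKcs -/- G1: CAGA

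double mutant, G2 library 2: CAGAaggc

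double mutant, G1: CAG

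The palindromic part was 3 to 7 bases long with a median of 4. The insertion CAGACGT joined the bait to a signal end that had lost 60 bp, CAGACGTcc to one that had lost 37 bp, and CAGACcc to a complete signal end. The insertion of 18 bases, CAGACGccctcctgcacg, was the longest of any hybrid join.

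**Figure D3:**
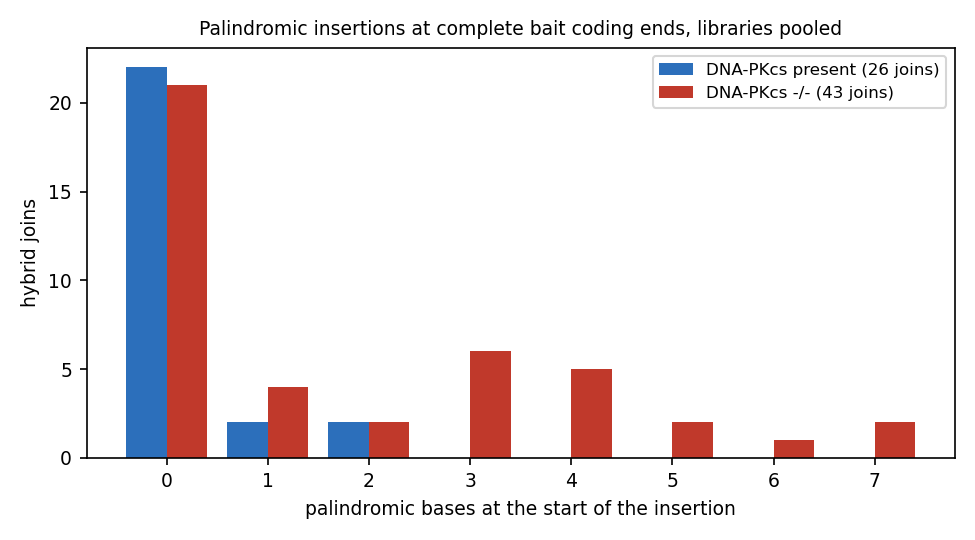
Number of hybrid joins with a complete bait coding end by the number of palindromic bases at the start of the insertion (0 means none or no insertion), pooled over libraries with DNA-PKcs (26 joins) and without it (43 joins). Lengths of 3 to 7 bases account for 16 joins without DNA-PKcs and 0 of the 26 with it, and shorter ones occur in both.

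Microhomology, meaning bases that match both ends at the junction, was present in 12 of 72 hybrid joins with DNA-PKcs (16.7%) and 84 of 239 without it (35.1%). Most of it was short, with 1 bp in 50 of 96 joins, 2 to 3 bp in 29 and 4 bp or more in 17. Of these 17, 15 lacked DNA-PKcs, as did 84 of all 96. The libraries without DNA-PKcs lay close together at 29.6% to 41.4%. Those with DNA-PKcs had 0% to 27.3%, except for CtIP A/A G2 library 1, where both joins shared 1 base. The averaged difference was 14.3 points (interval -33.6 to 40, adjusted p = 0.50, exact permutation test). It was 25.0 points without CtIP A/A G2 library 1 (p = 0.0278, adjusted p = 0.0833) and 3.62 points without CtIP A/A G2 library 2 (adjusted p = 0.972), by the same exact permutation test. It was 8.26 points without either wild-type G1 or DNA-PKcs -/- G1, 5.78 points without DNA-PKcs -/- G2 library 1, and 28.7 points in a 200 bp window (adjusted p = 0.0556, exact permutation test). With ends as aligned it was 6.76 points, with strata averaging 42.4% with DNA-PKcs and 49.2% without it. Trimming at the heptamer borders removes shared bases past them, and complete signal ends were more frequent with DNA-PKcs. The most frequent shared sequences were C (18 joins), A (15 joins, all without DNA-PKcs), G (13 joins), GTCTG (6 joins) and GT (5 joins, all without DNA-PKcs). The remaining joins were direct, with nothing inserted or shared, in 14 of 72 joins with DNA-PKcs and 89 of 239 without it.

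Long bait deletions were rarer beside complete than beside shortened signal ends. Bait deletions over 20 bp accompanied 5 of 92 complete signal ends (5.43%) and 81 of 219 shortened ones (37.0%). They accompanied 2 of 45 and 9 of 27 with DNA-PKcs and 3 of 47 and 72 of 192 without it, so the same order was seen in both. Within the 9 libraries that had both kinds, 7.70% of joins with a complete signal end and 34.1% of those with a shortened one had such a bait deletion, lower in 7 libraries and higher in 0. This difference of -26.4 points passed in the exact sign-flip permutation test (p = 0.0156, adjusted p = 0.0469 over 3 measures), a comparison that was chosen after the data had been seen. The call was lost (adjusted p = 0.0938, exact permutation test) without any 1 of 7 libraries, namely the 4 G1 libraries, wild-type G2 library 2 and either G2 library of the double mutant. The difference ranged from -29.7 to -23.4 points as each library was left out. It was -20.0 points in a 200 bp window and -21.2 points for bait deletions over 10 bp, and neither passed (adjusted p = 0.188 and 0.0703, exact permutation test). The pooled median bait deletion was 2 bp beside complete signal ends and 11 bp beside shortened ones. Insertions accompanied 52 of 92 complete and 60 of 219 shortened signal ends, but the within-library difference of 13.4 points did not pass (adjusted p = 0.598, exact permutation test). Microhomology was present in 3 of 92 complete and 93 of 219 shortened signal ends, and trimming at the heptamer borders removes shared bases that lie past them.

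**Figure D4:**
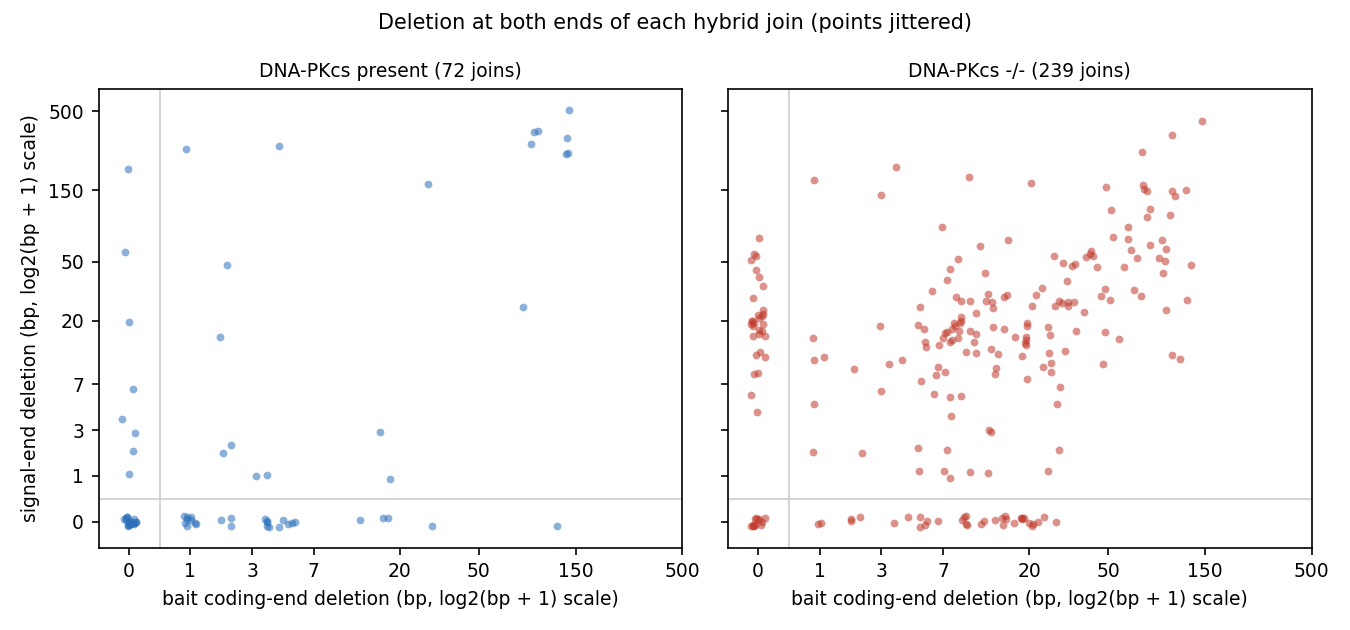
Bait coding-end deletion against signal-end deletion of each hybrid join, in bp on log2(bp + 1) axes with small random jitter, for the 72 joins with DNA-PKcs and the 239 without it; grey lines separate complete ends (0 bp) from shortened ones. Joins with a complete signal end lie along the lower edge, where 5 of 92 have a bait deletion over 20 bp against 81 of 219 above it.

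The CtIP A/A allele was compared with wild-type CtIP to see whether hybrid joins differ with this allele. In the exact permutation test 0 of 6 measures passed, and 0 had an unadjusted p below 0.05. Complete signal ends differed by -3.37 points (interval -42.8 to 26.7, adjusted p = 0.819) and insertions by -7.18 points (interval -50.0 to 22.4, adjusted p = 0.733), both by the exact permutation test. Among DNA-PKcs -/- cells, complete signal ends were 10.3% and 0% of joins with wild-type CtIP and 18.4%, 25.0% and 28.4% with CtIP A/A. These groups did not overlap, whereas the libraries with DNA-PKcs overlapped. In the coding-side joins of the DNA-PKcs -/- cells, complete partner ends overlapped. They were 6.65%, 7.81% and 7.28% with wild-type CtIP and 6.28%, 7.45% and 7.07% with CtIP A/A. The 0% stood for 0 of 5 joins (Wilson interval 0% to 43.4%) and the 25.0% for 2 of 8 (7.15% to 59.1%). The CtIP difference in complete signal ends was 41.5 points higher without DNA-PKcs than with it, and in microhomology 43.9 points lower (each p = 0.0278, adjusted p = 0.0833, exact permutation test of no CtIP difference in either background). Without CtIP A/A G2 library 1 these values were 23.6 and 22.5 points, with adjusted p = 0.167 for both in the exact permutation test.

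The phases were compared to see whether hybrid joins from G2 cells differ from those of G1 cells. In the exact permutation test 0 of 6 measures passed, and 0 had an unadjusted p below 0.05. In libraries with DNA-PKcs, complete signal ends made up 35 of 56 hybrid joins in G1 and 10 of 16 in G2, and without DNA-PKcs 22 of 145 and 25 of 94. The averaged phase differences were -4.42 points for complete signal ends (interval -44.0 to 35.7, adjusted p = 0.963) and -20.8 points for insertions (interval -63.6 to 18.9, adjusted p = 0.556), by the exact permutation test. The latter was lower in the mean of the G2 libraries in all 4 genotypes. All G1 libraries were in the second sequencing run, and within that run the difference in insertions was -2.91 points, with 40.7% in G2 against 21.8% in G1 in the double mutant. With 0 to 8 hybrid joins in 7 of the 8 G2 libraries, these intervals are wide.

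Set against the coding-side joins of the same library, hybrid joins carried insertions less often. Over the 11 libraries with both kinds, 34.9% of hybrid and 52.8% of coding-side joins had inserted bases, a difference of -18.0 points, lower in 10 of 11 libraries (p = 0.00879, adjusted p = 0.0439 over 5 measures, exact sign-flip permutation test). The difference was -12.3 points without CtIP A/A G2 library 1 (adjusted p = 0.0439, exact permutation test). It was -11.2 points over the libraries with 5 or more hybrid joins and -7.95 points with a 200 bp window, and neither of these passed (adjusted p = 0.117 and 0.249, exact permutation test). The call was also lost when any of 6 single libraries was left out, with adjusted p up to 0.0879 in the same test. These were both wild-type G2 libraries, the CtIP A/A G1 library, CtIP A/A G2 library 2, and G2 library 1 of DNA-PKcs -/- and of the double mutant. In the 5 libraries of hybrid joins without DNA-PKcs the mean difference was -9.19 points ± 14.2 (SD), and in the 6 with DNA-PKcs it was -25.3 points ± 26.4 (SD).

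The partner end was complete in 37.9% of hybrid joins and 21.8% of coding-side joins, a difference of 16.2 points, higher in 9 of 11 libraries, that did not pass (p = 0.0400, adjusted p = 0.100, exact permutation test). Without CtIP A/A G2 library 1 it was 21.1 points and passed (adjusted p = 0.0293, exact permutation test). Bait deletions over 20 bp differed by -0.394 points over all 11 libraries (adjusted p = 0.975, exact permutation test). In the 5 libraries without DNA-PKcs that had hybrid joins they were less frequent in hybrid joins each time. Their shares there were 39.7% against 64.6% in DNA-PKcs -/- G1 and 20.0% against 58.8% in its first G2 library. In the double mutant they were 34.5% against 60.4% in G1, and 25.0% against 46.9% and 23.5% against 37.7% in G2. In the 6 libraries with DNA-PKcs the difference was higher in 3, with a mean of 20.2 points ± 42.3 (SD). The difference between the genotypes was not tested. Joins with microhomology differed by 7.89 points and partner-end deletions over 20 bp by 7.73 points, and neither passed (adjusted p = 0.724 for both, exact permutation test).

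**Figure D5:**
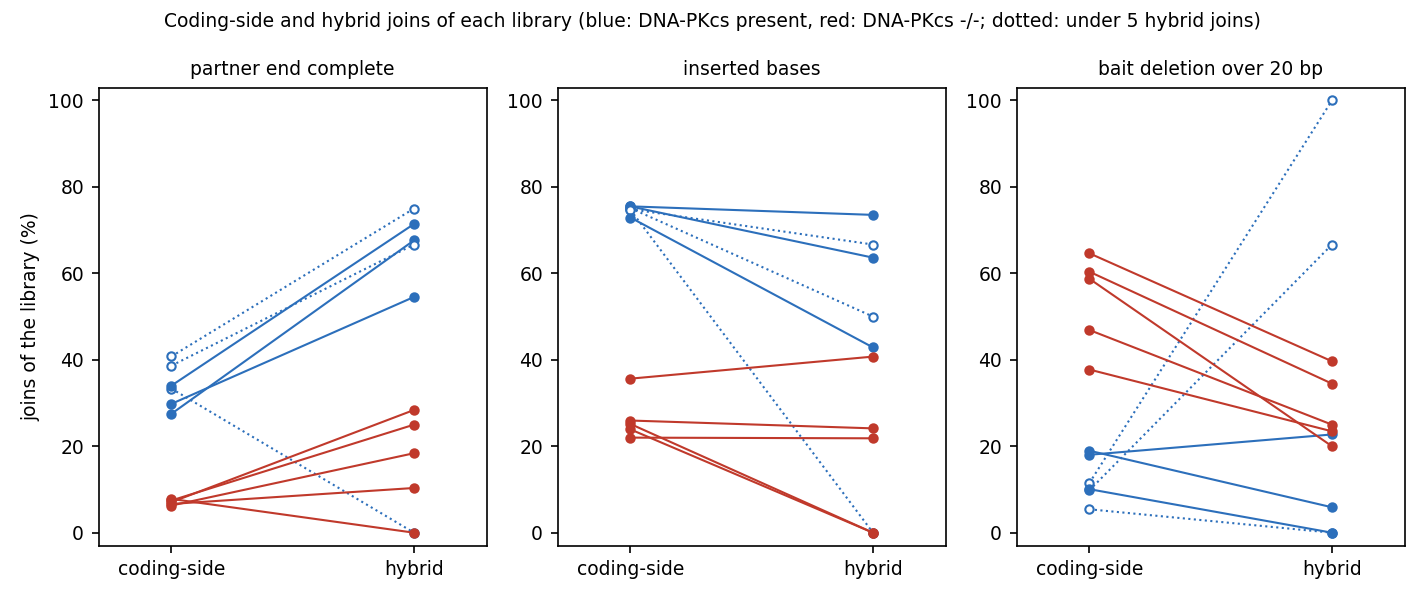
Share of joins with a complete partner end, with inserted bases and with a bait deletion over 20 bp among the coding-side joins (left) and hybrid joins (right) of each of 11 libraries, joined by a line; dotted lines and open circles mark libraries with under 5 hybrid joins. Insertions are lower in hybrid joins in 10 of 11 libraries and complete partner ends higher in 9 of 11.

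Joins of the bait end to the signal side of its own break, the remaining class next to a signal, made up 1.62% to 4.08% of substrate junctions with DNA-PKcs and 3.39% to 12% without it. Hybrid joins made up 0.567% to 4.14% and 0% to 8.80% of the same junctions. The DNA-PKcs -/- G2 library with 0 hybrid joins had 19 of these joins among 561 substrate junctions.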

How the data were processed

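Per the labels' protocols, sonicated DNA was amplified from a biotinylated and then a nested bait primer, cut with BstBI to remove germline substrate, and the substrate was added to mm10 as a chromosome for alignment. Bowtie2 and mm10 are named in the submitters' processing notes. The versions, the caller of junctions and the treatment of duplicates and filters are not given in the sources used here. Deposited tables hold 1 junction per line as base positions without normalization.

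Ends were read from the deposited alignments and trimmed at the heptamer borders. A gap between bait and prey was an insertion and an overlap microhomology. The 6 measures were library percentages, compared by two-sided exact permutation over libraries within strata (144, 72, 81 or 54 arrangements), or by sign flips within libraries (2048 or 512), using pandas 2.3.3, numpy 2.4.6, scipy 1.17.1 and matplotlib 3.10.9 under Python 3.11.15. Each comparison's p-values were Benjamini-Hochberg adjusted over its own measures, with a threshold of 0.05, and intervals invert the test. Classification and tests were tested on simulated data. The named positions are the 5 prey and 5 bait positions with the highest mean share over libraries, and the named sequences the 5 most frequent insertions and shared sequences, with the exact join. Members, measures and rules were chosen with earlier results of these data known. Alternatives covered repeat lines, short alignments, windows, thresholds, trimming, scale, denominator, runs, phases and single libraries.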

Additional observations from a re-analysis of the deposited data

How the results depend on the processing

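Of 710 alternative values, 604 kept the sign and the side of the threshold, 74 changed sign, 19 lost a call and 3 gained one, and 10 others kept the sign but moved by more than the spread between replicates in subsets too small to reach the threshold. No DNA-PKcs, CtIP or phase comparison, nor the difference of the CtIP differences, passed under any alternative, with lowest adjusted p of 0.0556, 0.0833, 0.111 and 0.0556. The smallest p that these exact permutation tests could give on the main values was 0.0123. A single measure could therefore not pass on its own after adjustment over 6 measures. Values are differences in percentage points in the direction used above, and the cause of a change was not tested. Depth is among the limits: 4 libraries had under 5 hybrid joins, and runs or groups of 2 against 2 cannot reach the threshold alone.

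With a 200 bp window, the CtIP differences were 2.89 (signal end complete), -1.59 (signal deletions over 20 bp) and -5.19 (bait deletions over 20 bp). The phase differences were 3.90, -7.57 and -4.72 for the same measures and -3.41 for microhomology, and the difference of CtIP differences in bait deletions was 6.73. Against coding-side joins, complete partner ends differed by 26.2 and passed, insertions by -7.95 and no longer passed, partner-end deletions by -6.08 and microhomology by -1.31. Between complete and shortened signal ends, complete bait ends differed by -2.58, bait deletions by -20.0 and insertions by -0.0523. At a 10 bp threshold, the CtIP difference in signal deletions was -1.10 and bait deletions beside complete signal ends differed by -21.2. With ends as aligned, microhomology differed from coding-side joins by 20.3 and passed.

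With joins pooled over libraries, CtIP differences were 1.79 for complete signal ends and 0.269 for insertions, and phase differences were 1.04 (complete), -4.02 (signal deletions), -2.09 (bait deletions) and -2.36 (microhomology). Over libraries with 5 or more hybrid joins these 6 values were 7.21, 2.73, 4.95, -14.8, -17.5 and -5.48. There, partner-end deletions differed from coding-side joins by -3.63, insertions by -11.2, bait deletions beside complete signal ends by -26.8, and the DNA-PKcs difference in spacer ends was 42.1.

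On the log odds scale, the DNA-PKcs difference in the hybrid share was -0.0497 and the CtIP difference in complete signal ends 0.114. As a share of all junctions, the DNA-PKcs difference in hybrid joins was -0.37. Without G1 libraries, the DNA-PKcs differences were -19.6 in bait deletions and 62.1 in spacer ends, the difference of CtIP differences in the hybrid share was 6.30, and against coding-side joins bait deletions differed by 7.85 and insertions by -26.0. In run 1 alone, DNA-PKcs differences were -17.5 (signal deletions), -27.5 (bait deletions), -11.2 (microhomology) and 65.0 (spacer ends), and differences of CtIP differences were 100 (complete), -115.0 (signal deletions), -95.0 (bait deletions) and -102.5 (microhomology). In run 2 alone, CtIP differences were -7.11 (signal deletions) and -18.3 (bait deletions), phase differences 8.64 (complete), -4.57 (signal deletions) and -9.27 (microhomology), the differences of CtIP differences 12.2 (complete), -1.41 (signal deletions), 19.7 (bait deletions) and -22.1 (microhomology), and the DNA-PKcs difference in spacer ends 40.1.

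Leaving out each library in turn, DNA-PKcs differences ranged from -10.9 to 14.1 in bait deletions, -2.37 to 22.6 in signal deletions and 42.1 to 55.2 in spacer ends. CtIP differences ranged from -4.36 to 20.6 in bait deletions, -13.4 to 5.56 in complete signal ends and -3.87 to 21.1 in signal deletions. Phase differences ranged from -6.30 to 18.7 in bait deletions, -6.31 to 15.1 in microhomology, -13.3 to 4.51 in complete signal ends and -9.84 to 15.2 in signal deletions. The difference of CtIP differences in bait deletions ranged from -42.2 to 7.77. Against coding-side joins the ranges were -9.28 to 3.44 for bait deletions, -20.3 to -12.3 for insertions, -0.365 to 9.87 for microhomology, 13.8 to 21.1 for complete partner ends and -0.766 to 10.2 for partner-end deletions. Between complete and shortened signal ends they were -0.761 to 9.66 for complete bait ends and -29.7 to -23.4 for bait deletions.

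With the replicate number as a replicate block, the DNA-PKcs differences were -37.3 for complete signal ends, -28.7 for insertions and 50.1 for spacer ends, and no call changed. Same-numbered G2 libraries deviated together in 1 of the 3 genotype pairs that gave a value (r = 0.531, with -0.847 and -0.233 in the others, over measures). The labels do not say that the number marks a pair, though it coincides with the sequencing run among the G2 libraries.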
